A study of Mus musculus with 41 samples.

Results

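Gains were CUT&RUN (CNR) peaks of the histone methyltransferases MLL3 and MLL4 (MLL3/4) that were seen after SOX9 was induced and that no uninduced peak of the same system touched by even 1 bp. In mouse skin at week 1 (W1) of doxycycline (DOX), 12518 of 31539 MLL3/4 peaks (39.7%) were gains against day 0 (D0). In cultured keratinocytes, 4403 of 10543 MLL3/4 peaks with DOX (41.8%) were gains against cells without DOX. A gain was called shared where it overlapped a gain of the other system by at least 1 bp, which held for 804 W1 gains and 801 DOX gains, and specific otherwise. Joined into single regions, the gains of both systems made 16106 regions, of which 790 were shared. Peaks on the mitochondrial sequence were left out.

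Skin samples were epidermal stem cells (EpdSCs) from the back skin of male CD1 mice of genotype K14rtTA; TRE-myc-Sox9, sorted as CD49f-high, Ly6A-high and CD34-negative after CD31, CD45, CD117 and CD140a-positive cells were left out. D0 mice were 21 postnatal days old and W1 mice 28 days old after DOX, so age and DOX cannot be told apart, and the D0 control mice carried both transgenes too. W2 and W6 mice were 35 and 63 days old. The W12 samples are labelled as grafted, and the study's methods describe them as epidermis of newborn pups placed on immunocompromised female Nude hosts, healed for 21 days before DOX. Cultured cells were back-skin keratinocytes from male CD1 mice that the labels give the same genotype, without DOX or with DOX at 1 µg per ml, and the study's methods describe them as Krt14-rtTA EpdSCs transduced with a lentivirus for MYC-tagged SOX9 and selected as a population. How long they received DOX is not given in the sources used here. The rtTA transgene is driven by the *Krt14* promoter, so that in skin SOX9 is induced in basal cells of the epithelium. Each group had 2 samples, which the authors pooled into 1 peak list, so no spread between replicates can be given and no test between groups was made. The 95% confidence interval (CI) of a share is Wilson's and that of a difference Newcombe's, and both cover counting error over peaks only.

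SOX9 is a pioneer transcription factor, which can bind its DNA word in closed chromatin through its HMG domain, and it specifies hair follicle stem cells and cartilage. MLL3 and MLL4 place monomethylation on lysine 4 of histone H3 at enhancers, and their arrival is an early mark of enhancer activation. A gain in this sense says that MLL3/4 was called at a place where it had not been called before induction.

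The lists differed before any comparison. The DOX list of 10543 peaks was the shortest of the pooled MLL3/4 lists, against 33975 peaks without DOX, 37072 at D0 and 31539 at W1, and 82% of the no-DOX peaks and 48.5% of the D0 peaks were missed after induction. The labels of both MLL3/4 samples with DOX describe the same biological replicate, although their titles number them apart. The depth of these lists is unknown. The methods describe tracks scaled to RPKM, as do the names of the skin lists, but the signal in all the pooled MLL3/4 lists is in whole numbers and is taken here as unscaled coverage. A share of W1 gains and a share of DOX gains therefore have different denominators, and each share depends on the length of the other list.

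The strongest gains that hold a SOX word are printed to show what the places of MLL3/4 arrival look like in sequence. Windows span the centre of the MLL3/4 maximum and 50 bp on both flanks on mm10 (GRCm38.p6) and are given 5′ to 3′ on the plus strand, from the RefSeq genome. A SOX word was counted where CCATTGT or the word CCTTTGT was found on either strand, and likewise the word GCATTGT or the word GCTTTGT, and capitals mark each match. The first 5 windows are shared gains, the next 2 are W1-specific and the last is DOX-specific.
Tle1, shared, chr4:72233973-72234073: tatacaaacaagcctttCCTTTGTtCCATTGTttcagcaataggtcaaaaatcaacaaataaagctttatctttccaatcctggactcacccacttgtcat
Ifngr1, shared, chr10:19498447-19498547: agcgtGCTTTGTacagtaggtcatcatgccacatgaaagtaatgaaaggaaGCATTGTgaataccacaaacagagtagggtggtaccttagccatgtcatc
Sntb1, shared, chr15:56028293-56028393: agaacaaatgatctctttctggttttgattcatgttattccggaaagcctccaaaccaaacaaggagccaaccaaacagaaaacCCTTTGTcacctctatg
E130114P18Rik, shared, chr4:97466206-97466306: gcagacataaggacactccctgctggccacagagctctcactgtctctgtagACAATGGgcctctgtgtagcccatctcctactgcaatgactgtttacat
Adamts9, shared, chr6:93062164-93062264: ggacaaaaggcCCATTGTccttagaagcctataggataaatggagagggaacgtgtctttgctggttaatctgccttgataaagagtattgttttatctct
Cwc22, W1-specific, chr2:77986259-77986359: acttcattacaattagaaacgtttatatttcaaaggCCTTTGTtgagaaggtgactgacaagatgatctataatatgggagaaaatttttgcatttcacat
Nde1, W1-specific, chr16:14180240-14180340: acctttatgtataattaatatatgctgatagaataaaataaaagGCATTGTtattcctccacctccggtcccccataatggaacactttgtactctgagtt
Utp20, DOX-specific, chr10:88834392-88834492: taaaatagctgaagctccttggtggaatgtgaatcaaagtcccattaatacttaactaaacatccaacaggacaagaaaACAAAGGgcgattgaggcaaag

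The windows near *Tle1* and *Ifngr1* each held 2 SOX words, and the other 6 printed windows held 1 each. Of the 10 shared gains with the best mean rank of total signal in both gain lists, 5 held the word in this window and 5 did not. A match describes these letters and is not a mapped binding site.

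Few gains were common to skin and culture. Of the W1 gains, 6.42% (95% CI 6.01 to 6.87) overlapped a DOX gain, against a local background of 0.2996% for the same peaks moved 10 kb to each side. Of the DOX gains, 18.2% (95% CI 17.1 to 19.4) overlapped a W1 gain (background 0.863%). Over whole induced lists, 16.8% of W1 peaks lay on a DOX peak and 50.6% of DOX peaks on a W1 peak, and of the uninduced lists 40.4% of D0 peaks lay on a no-DOX peak and 44.6% the other way. Most gains, shared ones included in the count, had no peak in either list of the other system. That was so for 77.8% (95% CI 77.1 to 78.5) of W1 gains looked up in culture and 74.3% (95% CI 73.0 to 75.6) of DOX gains looked up in skin.

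The remaining gains, shared ones apart, lay where the other system had MLL3/4 already. In culture, 658 W1 gains (5.26%) lay on a peak found both without and with DOX, and a further 1316 (10.5%) lay only on a peak of the no-DOX list. In skin, 286 DOX gains (6.50%) lay on a peak found at both D0 and W1 and 45 (1.02%) only on a D0 peak. The peaks that induction left behind numbered 27849 in culture and 17963 in skin, so these shares have unequal chances of overlap. No local background was computed for these exact classes. For any overlap, a no-DOX peak lay on 15.7% of all W1 gains (background 2.32%). A D0 peak lay on 7.06% of all DOX gains (background 2.21%).

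**Figure D1:**
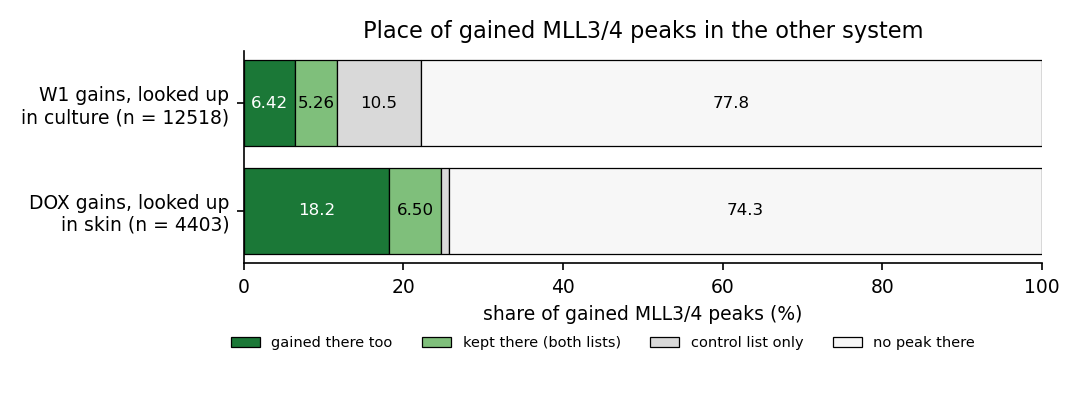
Bars show, for all W1 gains and all DOX gains, the share in percent that lay on a gained peak, a kept peak, a control-list peak alone or no peak of the other system. The bar for no peak spans 77.8% of W1 gains and 74.3% of DOX gains.

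Peaks that were present before induction recurred between systems more often than gains did in the DOX list. Any W1 peak lay on 24.7% (95% CI 23.4 to 26.0) of DOX gains and on 69.1% (95% CI 67.9 to 70.2) of the DOX peaks kept from the no-DOX list. With the DOX list cut into 3 equal parts by total signal, the shares were 31.4% of gains and 78.7% of kept peaks in the part of highest signal and 20.5% and 60.1% in the lowest. In the W1 list the gap depended on signal. Any DOX peak lay on 32.8% (95% CI 30.7 to 34.9) of W1 gains and 31.8% (95% CI 30.9 to 32.8) of kept W1 peaks in the part of highest signal, 14.5% and 12.7% in the middle, and 4.11% (95% CI 3.67 to 4.61) and 6.43% (95% CI 5.68 to 7.26) in the lowest, which held 6809 of the 12518 W1 gains. Over the whole list the shares were 11.7% and 20.1%.

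Strong gains were shared more often than weak ones in both systems. Among W1 gains cut into 10 equal parts by total signal, 21.2% (95% CI 19.1 to 23.6) of the strongest and 1.04% (95% CI 0.608 to 1.77) of the weakest part were shared. For DOX gains the shares were 31.3% (95% CI 27.1 to 35.8) and 13.4% (95% CI 10.5 to 16.9). The weakest 4 parts of the W1 gains each stood below 2%, whereas no part of the DOX gains stood below 12.7%. Limiting all 4 MLL3/4 lists to their 10543 strongest peaks turned the order of both shares, to 17.7% of W1 gains and 13.3% of DOX gains, while the upper 50% of each induced list alone kept it, at 9.64% and 15.9%. The former also shortened the control lists, so that its gains include peaks that met a weaker control peak in the full lists, and what turned the order cannot be told apart.

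**Figure D2:**
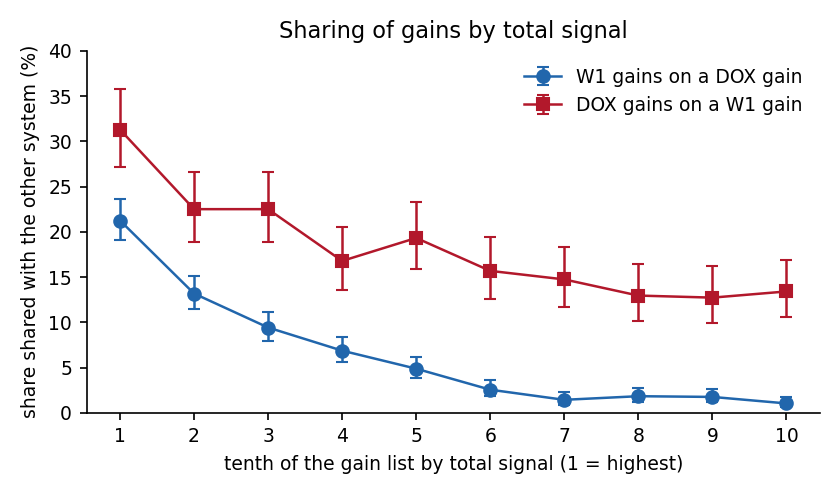
Points show the share in percent of gains that were shared with the other system in each of 10 equal parts of the gain list, ordered by total signal, with 95% Wilson intervals as bars. Sharing ran from 21.2% to 1.04% among W1 gains and from 31.3% to 13.4% among DOX gains.

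Shared gains were also broader than W1-specific ones. The median width was 415 bp for shared gains in the W1 list and 279 bp for W1-specific gains, with median maximum coverages of 7 and 5. The lowest maximum of any W1 peak was also 5, so the median W1-specific gain stood at the floor of its list. In the DOX list the medians were 354 and 343 bp, and 10 and 8, where the lowest maximum was 3. Where a single W1 gain met a single DOX gain, which gave 766 pairs, the centres of their maxima lay a median of 48 bp apart and 51.8% lay within 50 bp. Total signal in skin and in culture was only loosely related over these pairs, with a Spearman rho of 0.17 across peaks, which are not independent replicates.

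The limit of 1 bp touched few peaks. A D0 peak lay within 100 bp of 293 W1 gains, a no-DOX peak lay within 100 bp of 48 DOX gains, and 368 kept W1 peaks and 49 kept DOX peaks met their control by less than 100 bp.

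To ask whether SOX9 itself stood at the gains, they were set against the SOX9 CNR list of skin at W1 and the MYC-tag CNR list of cultured cells with DOX, which maps the transgenic SOX9. Neither list was used to choose the gains. SOX9 peaks of skin covered 82.6% (95% CI 79.8 to 85.1) of shared gains and 26.9% (95% CI 26.1 to 27.7) of W1-specific gains, a difference of 55.7 points (95% CI 52.8 to 58.3), with backgrounds of 3.79% and 2.63%. Over all W1 gains the share was 30.5% (95% CI 29.7 to 31.3), below the 45.3% of all W1 peaks and the 55.01% (95% CI 54.3 to 55.7) of kept W1 peaks. MYC-tag peaks covered 65.5% (95% CI 62.2 to 68.8) of shared gains and 50.9% (95% CI 49.2 to 52.5) of DOX-specific gains, a difference of 14.7 points (95% CI 10.9 to 18.3), with backgrounds of 0.874% and 0.458%. Here all DOX gains stood at 53.5% (95% CI 52.1 to 55.001), above the 34.9% of all DOX peaks and the 21.5% (95% CI 20.5 to 22.5) of kept DOX peaks. SOX9 peaks of skin had a median width of 682 bp and MYC-tag peaks one of 189 bp, so the 2 sets of shares are not on the same footing.

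**Figure D3:**
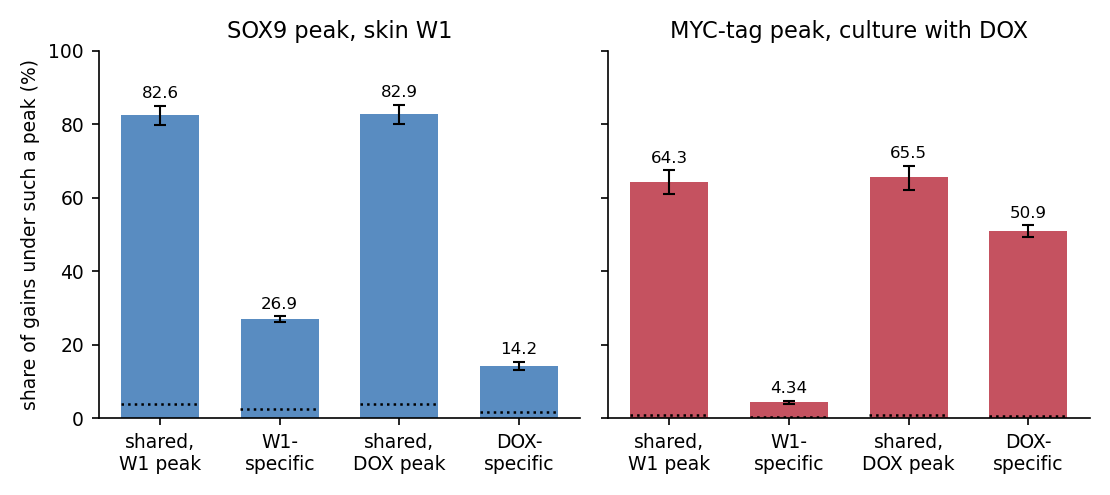
Bars show the share in percent of shared gains, taken at their W1 or DOX peak, and of specific gains that lay under a SOX9 peak of skin at W1 or a MYC-tag peak of cultured cells with DOX, with 95% Wilson intervals and, dotted, the share after moving the gains 10 kb. Shared gains stood at 82.6% and 65.5%, W1-specific gains at 26.9% and 4.34%, and DOX-specific gains at 14.2% and 50.9%.

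The factor of the other system was looked up in the same way. MYC-tag peaks covered 4.34% (95% CI 3.98 to 4.72, background 0.359%) of W1-specific gains, against 7.03% of all W1 peaks and 6.26% of kept W1 peaks. SOX9 peaks of skin at W1 covered 14.2% (95% CI 13.1 to 15.4, background 1.67%) of DOX-specific gains, against 42.9% of all DOX peaks. Of the shared gains, 57.3% lay under both factors, 25.2% under SOX9 alone, 6.97% under the MYC tag alone and 10.4% under neither. Of the W1-specific gains, 72.5% (95% CI 71.6 to 73.3) lay under neither. This share held for the full lists, since SOX9, with or without the MYC tag, covered 71.0% of W1-specific gains once induced and control MLL3/4 lists were limited to equal length, which changes both the strength of the peaks and which of them count as gains. Of the DOX-specific gains, 42.7% lay under the MYC tag alone and 43.1% under neither.

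Sites bound in a single system carried a gain of that system more often than of the other. Of the MYC-tag peaks, 2505 lay on a SOX9 peak of skin at W1 and 4166 did not. At the 2505 common sites, 18.8% (95% CI 17.3 to 20.4) gained MLL3/4 in both systems, 17.7% in skin alone, 12.3% in culture alone and 51.2% in neither. Many of these sites could not gain, since 44.8% lay on a D0 peak and 49.9% on a no-DOX peak, and 80.0% had an MLL3/4 peak at W1 and 71.4% with DOX. At the 4166 sites of culture, 39.3% (95% CI 37.8 to 40.8) carried a DOX gain and 3.097% (95% CI 2.61 to 3.67) a W1 gain. At the 13247 SOX9 peaks of skin without a MYC-tag peak, 20.2% (95% CI 19.5 to 20.8) carried a W1 gain and 2.84% (95% CI 2.57 to 3.14) a DOX gain. There, 71.3% lay on a D0 peak and 48.1% on a no-DOX peak, against 6.63% and 14.4% of the 4166 sites of culture.

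The difference in SOX9 cover between shared and W1-specific gains also stood within parts of the list, although it was smaller among strong gains. With W1 gains ranked by total signal and cut into 3 parts of equal number, SOX9 covered 90.4% of shared and 57.6% of W1-specific gains in the strongest part, 67.3% and 18.9% in the middle and 48.5% and 8.02% in the weakest. Signal was not matched exactly within parts, since the median total signal of shared and W1-specific gains was 1761 and 1408 in the strongest part, 817.5 and 750 in the middle and 552.5 and 544 in the weakest. In the same parts of the DOX gains, the MYC tag covered 85.7% of shared and 76.7% of DOX-specific gains, 59.5% and 48.3%, and 34.7% and 30.9%. With the 4 MLL3/4 lists limited to equal length, SOX9 covered 91.7% of shared and 71.0% of W1-specific gains, a difference of 20.7 points (95% CI 18.1 to 22.9).

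MLL3/4 peaks of W2 lay on 71.9% (95% CI 68.7 to 74.9) of shared gains, 36.4% (95% CI 35.5 to 37.3) of W1-specific gains and 11.4% (95% CI 10.4 to 12.5) of DOX-specific gains (backgrounds 4.85%, 3.26% and 1.86%). Within the 3 parts of the W1 gains by total signal, the gap was smaller. W2 peaks lay on 84.0% of shared and 71.7% of W1-specific gains in the strongest part, 44.0% and 29.5% in the middle and 29.4% and 12.4% in the weakest. All W1 gains recurred at 38.7% (95% CI 37.8 to 39.5), all W1 peaks at 62.9% and kept W1 peaks at 78.8%. The choice of kept peaks as called at both D0 and W1 fixes this contrast in part. SOX9 of skin covered more DOX-specific gains at W6, and in the grafts of W12, than at W1. The share was 14.2% at W1 and 14.3% at W2. At W6 it stood at 27.0% (95% CI 25.5 to 28.4), and the W12 list gave 19.2% (95% CI 17.9 to 20.5). Cover of all DOX peaks was 42.9%, 44.0%, 52.2% and 34.0% in the same order, so it was also higher at W6, but not at W12, for the whole list. With all SOX9 lists limited to the 9745 peaks of the shortest, an alternative chosen after the data were seen, the shares were 10.02%, 9.05%, 16.6% and 19.2%. On the same equal lists W1-specific gains were covered at 19.2%, 15.7%, 17.6% and 13.5% and shared gains at 71.5%, 61.4%, 72.1% and 63.6%. Without DOX, MYC-tag peaks lay on 0 of 801 shared and 2 of 3602 DOX-specific gains.

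Cultures that received DOX but carried a SOX9 lacking a domain had MLL3/4 at few of the DOX gains. With SOX9 lacking its transactivation domain, MLL3/4 peaks lay on 4.87% (95% CI 3.58 to 6.59) of shared gains and 4.78% (95% CI 4.13 to 5.52) of DOX-specific gains. With SOX9 lacking its HMG domain, the shares were 6.49% (95% CI 4.98 to 8.41) and 4.41% (95% CI 3.79 to 5.13). W1-specific gains were covered at 10.8% and 10.6%, against 16.8% by the pooled no-DOX list. DOX peaks kept from the no-DOX list were covered at 82.6% and 87.7%, a contrast that the choice of gains as places without a no-DOX peak fixes in part. The no-DOX list of replicate 1 alone, whose sample is part of the pooled no-DOX list, covered 4.87% of shared and 4.80% of DOX-specific gains. The 3 lists held 25948, 23301 and 40061 peaks, and the local background for shared and DOX-specific gains ran from 1.17% to 3.12%.

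The SOX word was less frequent in W1-specific gains than in shared or DOX-specific ones. It lay in the same central window of 27.9% (95% CI 24.9 to 31.1) of shared gains at their W1 peak, 11.2% (95% CI 10.6 to 11.8) of W1-specific gains and 29.5% (95% CI 28.04 to 31.0) of DOX-specific gains. Windows of the same length 1 kb to each side held it at 6.34%, 6.65% and 6.72%. DOX-specific gains exceeded W1-specific gains by 18.3 points (95% CI 16.7 to 19.9). At the DOX peak of shared gains the share was 33.7% (95% CI 30.5 to 37.1). The shares over all W1 peaks and all DOX peaks were 9.09% and 19.2%.

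**Figure D4:**
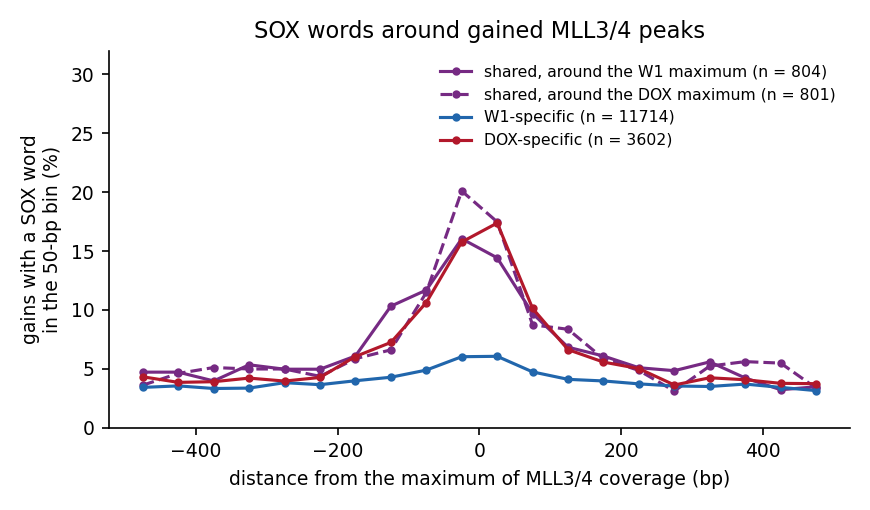
Lines show the share in percent of gains that held a SOX word starting in each 50-bp bin, by distance in bp from the centre of the MLL3/4 maximum. Shared and DOX-specific gains reached between 14.4% and 20.1% in the 2 bins around the maximum, and W1-specific gains reached 6.04% and 6.07%.

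The word was more frequent under the factor in both systems, by 11.6 points (95% CI 10.1 to 13.1) among W1-specific and 9.93 points (95% CI 6.96 to 12.9) among DOX-specific gains. The word lay in 19.7% (95% CI 18.3 to 21.1) of W1-specific gains on SOX9 peaks and 8.07% (95% CI 7.51 to 8.67) off them, the latter against 6.48% in control windows. It lay in 34.4% (95% CI 32.2 to 36.6) of DOX-specific gains on MYC-tag peaks and still in 24.5% (95% CI 22.5 to 26.5) off them, against 6.33% in control windows. Pairs of facing SOX words, that is ACAAAG or ACAATG followed after 3 to 5 bases by CATTGT or CTTTGT, lay in 2.49% (95% CI 1.62 to 3.81) of shared gains, 0.273% of W1-specific gains and 0.777% of DOX-specific gains, against 0%, 0.0299% and 0.0278% in control windows. Over all peaks the share was 0.181% at W1 and 0.607% with DOX. Of the 32 W1-specific gains with such a pair, 31 lay on a SOX9 peak.

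The AP1 word of FOS and JUN factors (TGACTCA or TGAGTCA) ran the other way between specific gains. It lay in 9.03% of W1-specific gains and 4.97% of DOX-specific gains, a difference of 4.06 points (95% CI 3.15 to 4.91), with controls of 1.90% and 1.89%. Shared and W1-specific gains differed by -0.45 points (95% CI -2.27 to 1.75). It was most frequent in kept peaks, at 14.5% at W1 and 16.5% with DOX. The RUNX word AACCACA lay in 4.11% (95% CI 3.51 to 4.81) of DOX-specific gains against 2.37% in controls, in 2.56% of W1-specific gains against 2.48%, and in 1.74% of shared gains against 3.42% at the W1 peak and 2.50% against 3.25% at the DOX peak. Its share in DOX-specific gains was near the 3.92% of all DOX peaks and the 3.99% of kept DOX peaks. The TEAD word ACATTCC, for the factors through which YAP acts, lay in 3.86% of shared gains, 2.76% of W1-specific and 3.47% of DOX-specific gains (controls 0.871%, 1.44% and 1.65%), and in 3.42% of all W1 peaks and 4.03% of all DOX peaks. The GATA words AGATAAG and AGATAAC lay in 2.36%, 3.005% and 2.78%, against 2.86%, 2.46% and 2.79% in control windows. The ETS word CCGGAAG lay in 0 of 804 shared gains, 0.785% of W1-specific and 0.139% of DOX-specific gains, against 0.498%, 0.440% and 0.319% in control windows and 1.10% of all W1 peaks and 0.474% of all DOX peaks.

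Gains were mostly distal. Promoters, within 1 kb of an annotated transcript start (GENCODE vM21), held 6.22% (95% CI 4.75 to 8.11) of shared gains, 13.2% (95% CI 12.6 to 13.8) of W1-specific gains and 7.08% (95% CI 6.29 to 7.96) of DOX-specific gains, compared with 24.2% of kept W1 peaks and 20.1% of kept DOX peaks. W1-specific gains at promoters were more frequent off SOX9 peaks (14.2%, 95% CI 13.5 to 15.0) than on them (10.5%, 95% CI 9.44 to 11.6). Introns held 53.7% of shared, 43.3% of W1-specific and 50.7% of DOX-specific gains, and the median distance to a protein-coding start was 23.1, 22.7 and 25.9 kb. Repeat-masked sequence lay at the centre of 6.72% of shared, 12.6% of W1-specific and 10.4% of DOX-specific gains, against 25.5%, 26.2% and 26.9% in control windows.

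Among single gains, the 10 shared ones with the best mean rank had maximum coverages of 12 to 43 at W1, with a median of 20, and of 18 to 41 with DOX, with a median of 32. All 10 lay under SOX9 peaks at W1, W2, W6 and W12, under a MYC-tag peak and under an MLL3/4 peak at W2. Only 2 of the 10, those near *Itgb8* and *Adamts9*, were found with SOX9 lacking its transactivation domain, and 2, near *E130114P18Rik* and *Itgb8*, with SOX9 lacking its HMG domain. These gains were chosen by their signal, so their strength is a description.

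The first of them was intergenic, 33104 bp from the start of *Tle1*, which encodes a Groucho-type co-repressor (chr4:72233620-72234419). It was the strongest gain at W1, with a maximum coverage of 43, ranked 36 among DOX gains with a maximum of 27, and its maxima in the 2 systems lay 3 bp apart. The gain near *Ifngr1*, a subunit of the interferon-γ receptor, lay in an intron of a gene that is not protein-coding (chr10:19498121-19498909) and reached 21 in skin and 41 in culture. The gain 121394 bp from *Sntb1*, a syntrophin, reached 18 and 33, that in *Hivep3*, a zinc-finger transcription factor, 41 and 36, and that in *Itgb8*, an integrin subunit that activates latent TGF-β, 19 and 31. The other 5 had as nearest protein-coding starts *Tas2r144*, *Pfn2*, *E130114P18Rik*, *Clec2d* and *Adamts9*, with coverages of 12 to 25 at W1 and 18 to 35 with DOX. Near *Adamts9*, a secreted metalloprotease, skin held a second strong gain, W1-specific, 132566 bp from the start.

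The 5 strongest W1-specific gains had *Cwc22*, *Nde1*, *Adgrl2*, *Adamts9* and *Tm4sf1* as nearest protein-coding starts and maximum coverages of 21 to 40. All 5 lay under SOX9 peaks at W1 and MLL3/4 peaks at W2. They were specific in different ways. Those near *Nde1*, a dynein regulator, *Adgrl2*, an adhesion receptor, and *Tm4sf1*, a membrane protein, lay on MLL3/4 peaks of culture both without and with DOX, with maximum coverages without DOX of 18, 7 and 15 and with DOX of 39, 11 and 17, and all 3 also had a MYC-tag peak. Those near *Cwc22*, a splicing factor, and *Adamts9* had no MLL3/4 or MYC-tag peak in these lists of culture.

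The 5 strongest DOX-specific gains had *Utp20*, *Sema6a*, *Gm21961*, *Tfpi* and *Grik2* as nearest protein-coding starts and maximum coverages of 27 to 48. All 5 lay under a MYC-tag peak, and 0 of 5 had an MLL3/4 peak in skin at D0, W1 or W2. SOX9 in skin covered 1 of them at W1, near *Tfpi*, an inhibitor of coagulation, and 4 at W6, near *Utp20*, a ribosome assembly factor, *Sema6a*, a semaphorin, *Tfpi*, and *Grik2*, a kainate receptor. The SOX9 peak at *Tfpi* had a maximum of 2478 RPKM at W1 and 8773 RPKM at W6.

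Genes were linked to gains within 50 kb of the gene, to ask whether the systems met at genes where they did not meet at sites. Of 21938 protein-coding genes, 45.6% had a W1 gain, 20.4% a DOX gain and 13.8% (3028 genes) both, while 4.91% had a shared gain. Of the 3028 genes, 1950 (8.89% of all genes) had no shared gain, so that the gains of skin and culture stood at different places around them. How many genes would have both if gains fell independently was not computed. The counts therefore do not show that the systems met at the same genes. A further 1446 genes had a DOX gain and no W1 gain. With gains assigned to the nearest protein-coding start alone, 1785 genes had gains of both systems, and within 10 kb of the gene 1298 had.

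*Sox6*, a partner of SOX9 in cartilage, had gains of both systems at mostly different places. Within 50 kb of the gene, 568 kb long, lay 10 W1 gains and 9 DOX gains, of which 1 was shared. Maximum coverages ran from 5, the lowest in the W1 list, to 8 at the W1-specific gains, and from 6 to 23 at the DOX-specific ones. The same span held 19 MLL3/4 peaks at D0 and 14 at W1, and 9 without DOX and 12 with it. Of the 9 DOX gains, 8 lay under a MYC-tag peak, and of the 10 W1 gains, 3 lay under a SOX9 peak. The shared gain lay 423 kb into the gene, with maximum coverages of 11 at W1 and 14 with DOX. SOX9 and MYC-tag peaks lay together there, and also at DOX-specific gains near 172, 369 and 410 kb and at a W1 gain near 557 kb, which lay on MLL3/4 peaks of culture without and with DOX. The DOX-specific gain near 172 kb also had an MLL3/4 peak in skin at W2. *Sox5*, the other member of that cartilage pair, had 6 W1 gains and 2 DOX gains with 1 shared.

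**Figure D5:**
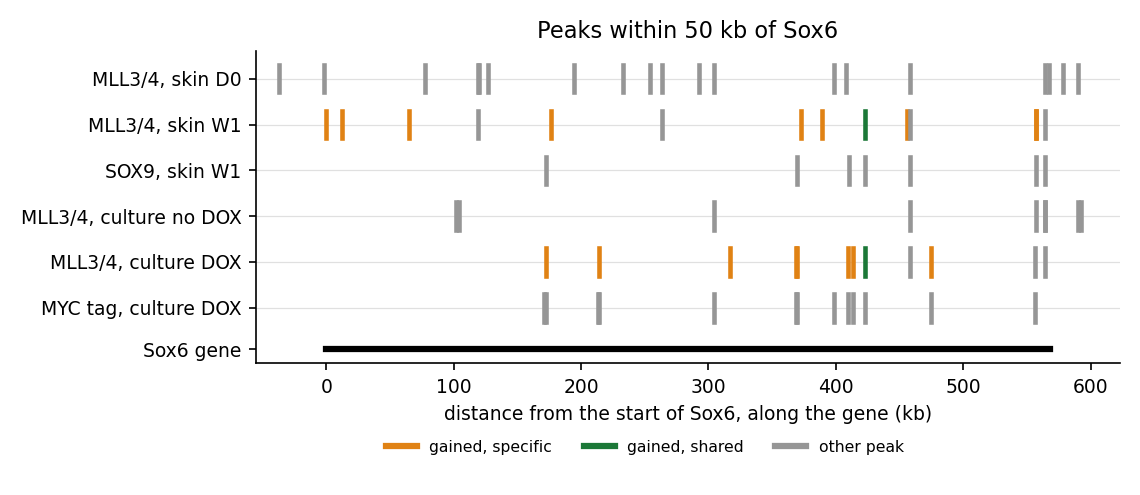
Ticks mark the peaks of 6 lists within 50 kb of *Sox6*, by distance in kb from the start of the gene, with specific gains, shared gains and other peaks in different colours. The 10 W1 gains and 9 DOX gains met at 1 place, and SOX9 and MYC-tag peaks lay together there and at other peaks, DOX-specific gains among them.

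By the number of gains in the system that had fewer, *Fgfr2*, *Rad51b*, *Adgrv1*, *Sox6*, *Gm20388*, *Pde4d*, *Gm37240*, *Cmss1*, *Sema5a* and *Ccdc192* led. *Rad51b*, a recombination gene, had 15 W1 and 11 DOX gains with 1 shared, *Adgrv1*, an adhesion receptor, 15 and 10 with 1 shared, and *Pde4d*, a cAMP phosphodiesterase, 13 and 8 with 4 shared. *Cmss1* had 18 and 7 with 3 shared, *Sema5a*, a semaphorin, 10 and 7 with 2 shared, and *Ccdc192* 8 and 7 with 0 shared. These genes are long, and counts were not scaled by length. *Fgfr2*, a fibroblast growth factor receptor, had 38 and 11 gains over a GENCODE model of 2961 kb, but 5 and 3 over its RefSeq span of 104 kb, and *Gm20388* and *Gm37240* were likewise models of 4435 and 1391 kb. With RefSeq spans, chosen after the data were seen, 7 of the 10 leading genes were the same.

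Follicle genes had gains in both systems, in larger number in skin. The same held for all protein-coding genes, of which 45.6% had a W1 gain and 20.4% a DOX gain. Of 15 hair follicle stem cell transcription factors, 14 had a W1 gain and 5 a DOX gain, with a median of 3 W1 gains and 0 DOX gains per gene, against medians of 0 and 0 over all genes. *Nfib*, a chromatin regulator of these stem cells, had 12 W1 gains and 1 DOX gain, *Runx1* 10 and 1, *Nfatc1*, which keeps them quiescent, 5 and 0, and *Tcf7l2*, a WNT effector, 5 and 2, of which 2 were shared. *Lhx2* had no gain in either system. Of 15 follicle surface and secreted markers, 13 had a W1 gain and 4 a DOX gain. None of them had a shared gain, against 4.91% of all genes, a share under which a list this short could hold none. *Bmp6* had 4 W1 gains, *Krt15* 3, and *Krt17* and *Lrig1* 2 each, with 0, 0, 1 and 1 DOX gains. The genes of these lists were longer than most, at medians of 67.4 and 38.1 kb against 17.4 kb.

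Genes of the epidermal fate also had gains in skin. Of 18 epidermal transcription factors, 13 had a W1 gain, 5 a DOX gain and 2 a shared one. *Trp63*, the master regulator of stratified epithelia, had 10 W1 gains, 7 of them under SOX9, and 1 DOX gain, which was shared. *Ehf* had 9 and 1, *Grhl2* 7 and 0, and *Tfap2a* 3 and 3 with 0 shared. *Gata3*, *Cebpa*, *Maf* and *Ovol1* had no gain in either system. Of the 4 RUNX genes and their partner, all 4 had W1 gains and 3 had DOX gains, with 8 and 1 at *Runx2*, 3 and 1 at *Cbfb* and 2 and 0 at *Runx3*. Of 10 AP1 genes, 6 had a W1 gain and 2 a DOX gain, with 2 and 1 at *Fosl2* and 2 and 0 at both *Fos* and *Fosl1*, while *Batf* had 1 DOX gain and 0 W1 gains, level with *Fosb*, *Jun* and *Junb*, which had 1 W1 gain each.

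Of 14 cartilage genes of SOX9, 9 had a W1 gain, 6 a DOX gain and 3 a shared one, and *Col27a1* and *Col9a1*, both collagens, each had 4 and 1. Of 14 Hippo and TEAD genes, 10 had a W1 gain and 8 a DOX gain. There *Tead1* had 5 and 6 with 2 shared, *Lats2*, a kinase that restrains YAP, 2 and 2 with 1 shared, *Yap1* 6 and 1 and *Stk3* 4 and 0. Of 12 hedgehog genes, with a median length of 69.6 kb, 8 had a W1 gain and 3 a DOX gain, the latter a share near that of all genes. *Sufu*, a repressor of GLI factors, had 2 and 5 with 1 shared, *Gli3* 2 and 3, *Gli2* 2 and 0 and *Boc*, level with 5 other members, 1 and 0, while *Gli1*, *Ptch1* and *Hhip* had no gain in either system.

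Of 12 mesenchymal genes, 5 had a W1 gain and 5 a DOX gain, and 0 had a shared one. *Zeb2*, a repressor of epithelial genes, had 2 W1 gains and 4 DOX gains, 3 of the latter under the MYC tag, *Tgfbi* had 3 and 0, and *Cdh2* 1 and 1. Of the 5 members with a single gain, *Snai1* and *Sparc* had it at W1 and *Twist2*, *Vim* and *Zeb1* with DOX, that of *Vim* under the MYC tag. Of 20 SOX genes, 9 had a W1 gain, 5 a DOX gain and 9 neither, with 3 and 1 at *Sox10*, which shared 1, and 4 and 0 at *Sox21*. *Sox9* itself had 1 W1 gain and 0 DOX gains. Of 20 WNT pathway genes, 13 had a W1 gain and 4 a DOX gain, with 3 and 2 at *Lrp6*, 2 and 2 at *Apc*, 4 and 0 at *Ctnnb1*, and 2 and 1 with 1 shared at *Lrp5*. Of the 5 TLE co-repressor genes found, 4 had a W1 gain and *Tle1* alone a DOX gain, with 4 and 3 gains and 2 shared, against 6 and 0 at *Tle4* and 1 and 0 at both *Tle2* and *Tle6*. All these counts were set beside 45.6% of all genes for W1 gains, 20.4% for DOX gains and 4.91% for shared gains. Differences in gene length were not removed, and the W1 gain list was the longer one.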

How the data were processed

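MLL3/4, SOX9 and MYC-tag CNR was done on 2 samples per group. Per the labels and the study's methods, the authors used Skewer for trimming and Bowtie2 2.2.9 for alignment to mm10, removed duplicates with Picard, filtered with SAMtools 1.3.1, kept fragments up to 120 bp, made tracks with deepTools 3.1.2 and called peaks with SEACR (stringent, 0.01). The deposited pooled MLL3/4 lists hold the maximum signal (coverage) of each peak in whole numbers, taken as not scaled to depth although the methods describe RPKM tracks, and every deposited list holds a total signal, a score that sums the signal over a peak's bases. The deposited SOX9, MYC-tag and single-replicate lists hold signal scaled by the authors to RPKM, and SOX9 and MYC-tag lists were limited by the authors to peaks above 1800. Depth per sample is not known from these lists.

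Peaks on chrM were left out, 3 in each pooled cultured MLL3/4 list. Overlap of at least 1 bp counted. Backgrounds moved peaks 10 kb to each side. Genes and starts were GENCODE vM21 and sequence was GRCm38.p6. Python 3.11.15, pandas 2.3.3, numpy 2.4.6, pysam 0.24.0 and matplotlib 3.10.9 were used, and the functions were tested on simulated lists. With 1 list per group there was no spread between samples and no p-value. Members, gene lists and word lists were chosen with earlier results of these data known.

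Named were the 10 shared gains of best mean rank of total signal, the 5 W1-specific and 5 DOX-specific gains of highest total signal, the 10 genes with most gains in the system with fewer, and the 4 genes with most gains in each of 12 gene lists. In the gene lists, ties went by the number of shared gains and then by alphabetical order. Some tied members and members without a gain were named beside them. A further NFI word was found in too few windows to describe. Alternatives were lists of equal length, the upper 50% of each list, merged peaks, a distance to control peaks, other words and windows, other gene links and, chosen after seeing the data, SOX9 lists of equal length and RefSeq spans. JUN, ARID1a and BRG1 samples and the MYC-tag lists of SOX9 variants were not analysed here.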

Additional observations from a re-analysis of the deposited data

How the results depend on the processing

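Of 78 alternative values of the main results, 44 stayed within their interval or within 1.5 times a count and 34 moved. With the MLL3/4 lists, controls included, limited to 10543 peaks, which also makes gains of peaks that met a weaker control peak, sharing was 17.7% of W1 gains and 13.3% of DOX gains, SOX9 cover 91.7% of shared and 71.0% of W1-specific gains, MYC-tag cover 55.8% of shared and 44.2% of DOX-specific gains, and the SOX word lay in 24.3% of shared, 12.9% of W1-specific and 26.4% of DOX-specific gains. With the upper 50% of each induced list, the same values were 9.64%, 15.9%, 93.6%, 63.2%, 79.3%, 69.3%, 32.3%, 16.7% and 31.3%. SOX9 cover of W1-specific gains was 24.4% with peaks within 500 bp merged and 25.6% without gains that had a control peak within 1 kb, which also gave 16.9% shared DOX gains. With the SOX9 list limited to 9745 peaks, chosen after seeing the data, SOX9 covered 71.5% of shared and 19.2% of W1-specific gains. In shared, W1-specific and DOX-specific gains, shorter SOX words gave 48.3%, 21.9% and 50.5%, longer ones 8.08%, 2.58% and 7.75%, and windows of 100 bp to each side 44.0%, 19.8% and 44.2%. Genes with gains of both systems numbered 1298 within 10 kb and 1785 by nearest start. The 33 differences between classes computed under alternatives all kept their sign.

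Using the no-DOX list of replicate 1 in place of the pooled one gave sharing of 6.22% and 18.1%, MYC-tag cover of 65.5% and 51.4% and the SOX word in 29.6% of DOX-specific gains. Other lists could not be split by replicate. No paired analysis was possible because each group has 1 pooled list. Intervals cover counting error over peaks, not variation between animals or cultures. Age and DOX in skin cannot be told apart, and the part of unequal list length and unknown depth in which peaks were called gained was not tested further.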
